A study of Mus musculus with 6 samples.

Results

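Aminoacyl-tRNA synthetases are the enzymes that join each amino acid to its transfer RNA (tRNA), and their transcripts were examined in mouse T cells cultured with or without glutamine. The genes were taken by symbol from a list that was drawn up with earlier results of these data known: 20 genes for cytosolic synthetases, 16 for mitochondrial ones (symbols ending in ars2) and 3 for scaffold proteins that hold several cytosolic synthetases in a complex. Of these 39 genes, 37 were measured by an array row that named a single gene, among 30702 genes in all. Aars is not analysed here because its row also names another gene, and Dars is not analysed here. Each of the 37 genes had 1 row.

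The 6 arrays held RNA of naive CD4 T cells, sorted as CD4+CD25-CD62L+CD44- cells and stimulated for 3 days with antibodies against CD3 and CD28. The medium, IMDM with fetal bovine serum (FBS, 10%), was the same for all 6 cultures, as were the additions that skew cells toward the IL-17-secreting TH17 type: TGF-beta (1.25 ng/ml), IL-6 (20 ng/ml), IL-23 (20 ng/ml) and blocking antibodies (10 ug/ml) against IL-4, IL-12 and IFN-gamma. The 3 control cultures had glutamine, and the other 3 were labelled as under a glutamine-free condition. The labels call the 3 arrays of a group biological replicates without naming separate mice, and give neither the mouse strain and age nor the amount of glutamine, so p-values measure only the spread between these arrays. The question is which transcripts of TH17-skewed cells differ when glutamine is missing.

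A cell needs a charged tRNA for every amino acid, and it runs this chemistry in the cytosol for nuclear-encoded proteins and again inside mitochondria for the few proteins made there. Most amino acids have a separate nuclear gene for each compartment, whereas Gars (glycine) and Kars (lysine) serve both. When an amino acid runs short, uncharged tRNA activates the kinase GCN2, encoded by Eif2ak4, and translation of the transcription factor ATF4 rises. Several cytosolic synthetase genes are known targets of ATF4 in other mammalian cells.

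Values are deposited log2 expression levels (RMA), and a change is the glutamine-free mean minus the control mean, tested with limma across all genes. A gene is said to have risen or fallen where its Benjamini-Hochberg adjusted p was under 0.05. By that rule 22.3% of all genes were called, 9.30% higher and 13.0% lower without glutamine. All 37 synthetase and scaffold genes were above the median level of all genes, 4.68. Among the genes above it, called brighter here, 13.7% were higher and 24.9% lower. These shares cover every gene above 4.68 and were not matched more closely to the levels of the genes set beside them. Of 6 measured T cell markers, all had mean levels between 12.41 and 17.09. For 14 of 16 markers of CD8 T, B, myeloid, NK and dendritic cells, the mean over the 6 arrays was below 5. The array medians were 4.18 to 4.38. Cd8b1 and Eomes were above 5. The mean over those 16 markers was 4.21 to 4.29 with glutamine and 4.12 to 4.15 without it. In that list Cd8b1 and Lyz2 changed by -0.71 and -1.66 and passed the test. The myeloid marker Lyz2 read 6.18, 5.59 and 5.64 with glutamine, above 5, and 4.21, 3.98 and 4.25 without. Of 4 measured TH17 markers all 4 fell (Il17a, Il17f, Il23r and Ccr6), and of the 6 T cell markers 2 rose (Cd3d and Cd5) and 0 fell as deposited. After quantile normalization the rise of Cd5 was lost (limma adjusted p = 0.468) and Cd4 and Cd3e fell (0.00637 and 0.0328). The part of these markers in the results was not tested. In bulk RNA, fewer cells with a transcript and less of it per cell cannot be told apart. RMA values above 16 occurred on every array, so changes are given in log2 units of the deposited scale and not as folds.

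Without glutamine, synthetase transcripts were lower or did not pass the test, and none rose. Of the 37 genes, 16 fell, 0 rose and 21 did not pass. At an unadjusted limma p under 0.05, 22 were lower and 1, Rars2, was higher. The share of all genes at that unadjusted threshold was not computed. The cytosolic set had 8 falls among 18 genes (44.4%), the mitochondrial set 7 among 16 (43.8%) and the scaffolds 1 among 3. Gars and Kars, which serve both compartments and both fell, were counted in the cytosolic set only. Of the brighter genes 24.9% fell. The median change was -0.43 for the cytosolic set, -0.14 for the mitochondrial set and -0.37 for the scaffolds, beside 0.060 over all genes and -0.059 over the brighter ones. Cars, the cysteinyl-tRNA synthetase gene, had the largest fall with a change of -1.01, and Kars, Iars2 and Farsa followed with -0.80, -0.74 and -0.71. The groups did not overlap in 22 of the 37 genes, against 43.8% of all genes and 56.2% of the brighter ones. The glutamine-free group was the lower one and did not overlap the control group in 21 of the 37 genes, against 33.9% of the brighter genes.

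Single arrays carried weight in these counts. The count of 16 falls was 10 when control replicate 2 was left out and 8 when glutamine-free replicate 2 was left out, and it was 18 without glutamine-free replicate 1. Falls over all genes went from 3988 to 2666 without glutamine-free replicate 2, and were also fewer without control replicate 2. Fewer falls without either array were thus not particular to the 37 genes. Without glutamine-free replicate 1, falls over all genes were fewer too, while those among the 37 genes were more. The falls of Cars, Farsa, Gars, Kars, Iars2, Tars2, Yars2 and Aimp2, 8 of the 16, were called without each array in turn. The count of 8 cytosolic falls was 4 without control replicate 1 or 2 or glutamine-free replicate 2, and 5 without glutamine-free replicate 3. Glutamine-free replicate 1 was the highest of its group for 31 of the 37 genes and for 17 of the 18 cytosolic ones, while this held for 47.5% of the brighter genes. Glutamine-free replicate 3 was the lowest of its group for 16 of the 18 cytosolic genes, beside 45.8% of the brighter genes. Control replicate 3 was the lowest of its group for 17 of the 18, beside 47.5% of the brighter genes.

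**Figure D1:**
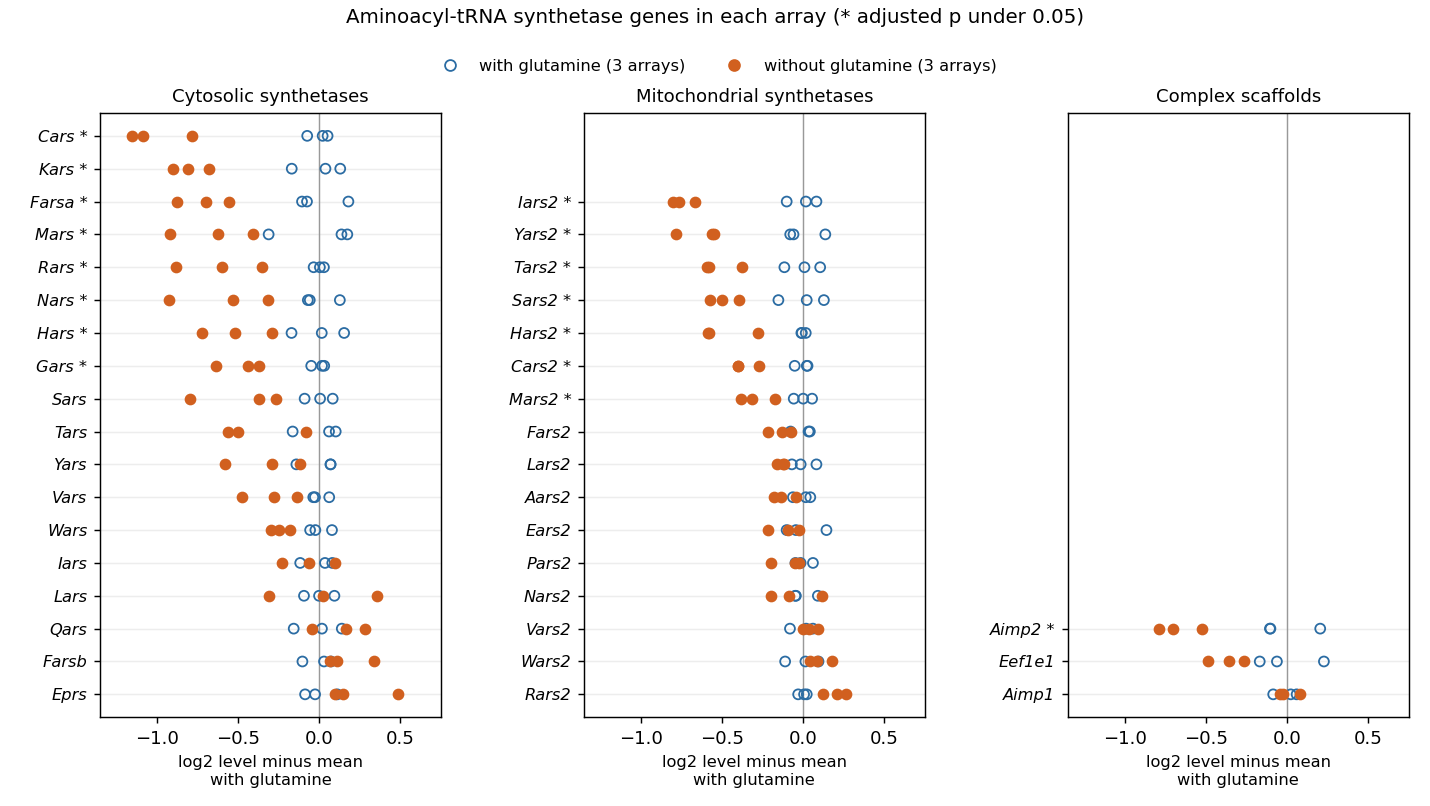
Each row is 1 gene and each point 1 array, as the log2 level minus the gene's mean over the 3 control arrays (open circles, with glutamine; filled circles, without), in panels for the cytosolic, mitochondrial and scaffold genes; stars mark adjusted p under 0.05 (limma). Cars, at the top, lies furthest left, with its 3 glutamine-free arrays between 10.34 and 10.72 against 11.43 to 11.55 with glutamine, while at the bottom of each panel the groups overlap or, for Rars2, lie the other way round.

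Among cytosolic synthetases that work outside the complex, Cars charges cysteine tRNA. Its levels were 11.52, 11.55 and 11.43 with glutamine and 10.72, 10.42 and 10.34 without it. All glutamine-free arrays were below all control arrays, and the change was -1.01 with a standard error (SE) of 0.11 and adjusted p = 0.00177.

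Farsa encodes the catalytic chain of phenylalanyl-tRNA synthetase, which works only with a second chain encoded by Farsb. Farsa read 9.98, 9.73 and 9.70 with glutamine and 9.25, 9.11 and 8.93 without, a change of -0.71 (SE 0.12, limma adjusted p = 0.00743) with no overlap. Farsb read 12.49, 12.45 and 12.32 with glutamine and 12.76, 12.53 and 12.49 without. Its groups overlapped and its change of 0.17 did not pass (95% interval -0.060 to 0.40, adjusted p = 0.246). Like the other partner differences given here, this pair was chosen after its values were seen: Farsa minus Farsb moved by -0.88, with SDs of 0.11 and 0.070 in the groups of n = 3 and no overlap. An exact two-sided permutation test of that difference gave p = 0.1, the smallest that 3 against 3 arrays allow.

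Gars, whose product charges glycine tRNA in both compartments, fell by 0.48 (SE 0.087, adjusted p = 0.0106) from 16.01, 16.00 and 15.93 to 15.61, 15.54 and 15.35. Its control levels were tight, with an SD of 0.043 (n = 3), and its groups were apart. Hars (histidine) fell by 0.51 from 12.36 ± 0.16 to 11.85 ± 0.22 (SD, n = 3 each, limma adjusted p = 0.0379). Nars (asparagine) fell by 0.59 from 15.22 ± 0.11 to 14.62 ± 0.31 (SD, n = 3 each, limma adjusted p = 0.0398). The groups of both genes were separate, but both calls ended when single arrays were left out: for Hars without control replicate 1 or 2 or glutamine-free replicate 2 or 3 (adjusted p 0.0958 to 0.108), and for Nars without any array but glutamine-free replicate 1 (0.0581 to 0.12).

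The remaining genes of this kind did not pass. Sars, whose product charges serine tRNA and the selenocysteine tRNA, read 15.22, 15.30 and 15.12 with glutamine and 14.95, 14.84 and 14.42 without. Its groups did not overlap, with a change of -0.48 and adjusted p = 0.0579, just outside the threshold, and it passed after quantile normalization or centring and without glutamine-free replicate 1 (adjusted p = 0.0476). Wars, for tryptophan, missed as narrowly with a change of -0.24 (adjusted p = 0.055). It passed after quantile normalization or centring too (adjusted p 0.0285 and 0.0116). Its 3 glutamine-free arrays, at 10.46, 10.39 and 10.34, all lay under its control arrays at 10.72, 10.62 and 10.58. Vars (valine, -0.30), Yars (tyrosine, -0.33) and Tars (threonine, -0.38) had adjusted p of 0.0781, 0.122 and 0.114, and Vars and Yars passed after centring (0.0228 and 0.0447). The groups of Yars and Tars overlapped, each at glutamine-free replicate 1, and Tars passed without that array (adjusted p = 0.027). Of the 11 genes outside the complex, 5 fell and 10 had a change below 0, with Farsb the exception. Among the brighter genes 24.9% fell and 55.4% had a change below 0.

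The complex binds 8 synthetases, of which 7 were measured, and 3 of these fell, beside 24.9% of the brighter genes. Kars, for lysine, read 14.19, 14.10 and 13.89 with glutamine and 13.39, 13.25 and 13.16 without. No glutamine-free array reached a control array, and the change was -0.80 (SE 0.10, limma adjusted p = 0.00329). Rars, for arginine, fell by 0.61 from 13.58, 13.55 and 13.51 to 13.20, 12.95 and 12.67 (adjusted p = 0.0205). The control arrays of Rars lay within a narrow band (SD 0.032) and the glutamine-free ones were spread more widely (SD 0.27). Mars, for methionine, fell by 0.65 from 12.41 ± 0.27 to 11.76 ± 0.26 (SD, n = 3 each, limma adjusted p = 0.0418). The call of Rars ended without control replicate 1 or 2 or glutamine-free replicate 2 (adjusted p 0.0586 to 0.0677), and that of Mars without those arrays or glutamine-free replicate 3 (0.108 to 0.125).

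The other 4 complex synthetases did not pass. Qars is the enzyme gene for glutamine itself, and it read 12.32, 12.20 and 12.03 with glutamine and 12.46, 12.35 and 12.14 without. The groups overlapped, and the change of 0.13 had a 95% interval of -0.14 to 0.41 (adjusted p = 0.436). Eprs, a fused enzyme for glutamate and proline, read 14.03, 14.16 and 13.97 with glutamine and 14.54, 14.20 and 14.15 without. Its groups overlapped too, with a change of 0.24 (95% interval -0.045 to 0.53, adjusted p = 0.195). Iars (isoleucine) and Lars (leucine) had changes of -0.065 and 0.025 with adjusted p of 0.683 and 0.927; Lars had the widest glutamine-free spread of all members, an SD of 0.33 (n = 3). The signs of Qars, Iars and Lars varied with the scaling or with the arrays used. Within the complex, Kars minus Qars moved by -0.93 and Kars minus Eprs by -1.04, both with no overlap between the groups. Each had an exact two-sided permutation p = 0.1, again the smallest possible. Because these pairs were chosen after their values were seen, the lack of overlap is no separate support for an unequal change.

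Of the 3 scaffold genes, 1 fell and the other two did not pass as deposited. Aimp2, which links synthetases within the complex, read 10.44, 10.14 and 10.13 with glutamine and 9.54, 9.71 and 9.45 without, and fell by 0.67 (SE 0.12, limma adjusted p = 0.00898) with no overlap. Aimp1, another scaffold whose product is also released as a cytokine, read 10.56, 10.52 and 10.42 with glutamine and 10.58, 10.48 and 10.46 without. Its groups overlapped throughout, with a change of 0.0040 (95% interval -0.17 to 0.18, adjusted p = 0.974). Aimp2 minus Aimp1, a pair also chosen after its values were seen, moved by -0.67 without overlap (exact two-sided permutation p = 0.1). Eef1e1, the third scaffold, read 15.67, 15.28 and 15.38 with glutamine and 15.18, 15.09 and 14.96 without. The groups were apart, but the change of -0.37 did not pass (adjusted p = 0.0712) as deposited, while quantile normalization or centring brought it past the threshold (adjusted p 0.0109 and 0.0218).

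**Figure D2:**
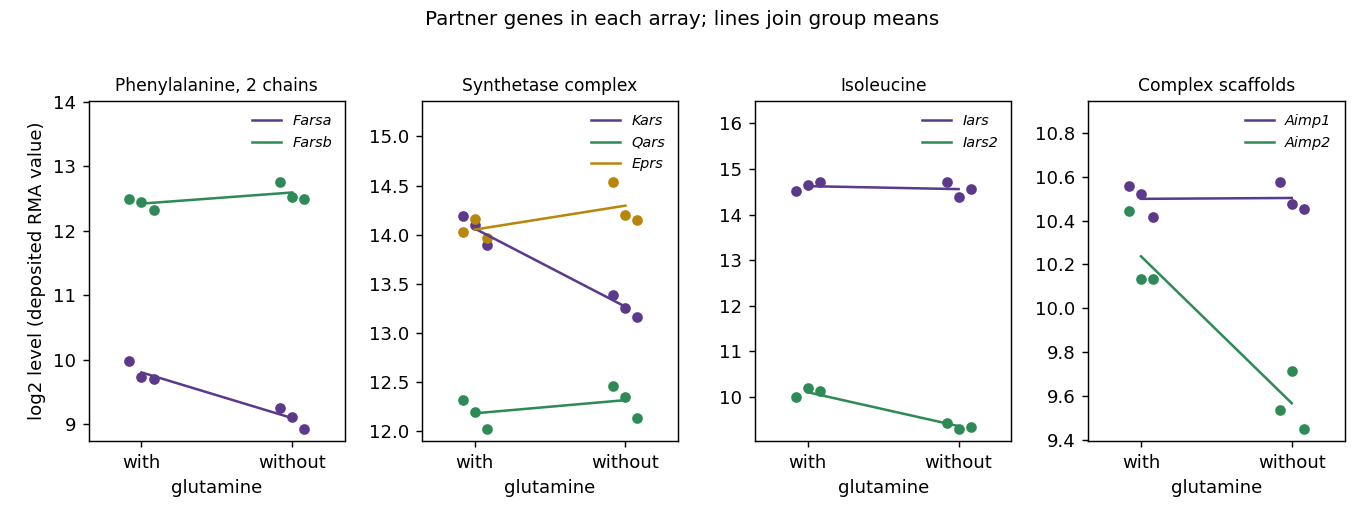
Points are the deposited log2 levels of single arrays and lines join the group means, with and without glutamine; each panel has its own vertical axis. Farsa, Kars, Iars2 and Aimp2 slope down in all 4 panels, while Farsb, Qars, Eprs, Iars and Aimp1, which share their enzyme, complex or amino acid, run near level or slightly up.

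Mitochondrial synthetases make the charged tRNAs used by mitochondrial ribosomes. Iars2, for isoleucine, read 10.00, 10.18 and 10.12 with glutamine and 9.44, 9.30 and 9.33 without. The groups were far apart relative to their spread, and the change was -0.74 (SE 0.079, limma adjusted p = 0.00156), the lowest adjusted p of all 37 genes. Yars2, for tyrosine, fell by 0.63 from 9.27, 9.05 and 9.07 to 8.57, 8.35 and 8.58 (adjusted p = 0.00639). Tars2, for threonine, fell by 0.52 from 9.95, 9.85 and 9.73 to 9.47, 9.26 and 9.25 (adjusted p = 0.0109). In both genes every glutamine-free array was below every control array.

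Sars2 (serine, -0.49), Hars2 (histidine, -0.48), Cars2 (cysteine, -0.36) and Mars2 (methionine, -0.29) fell as well, with adjusted p of 0.0138, 0.0161, 0.0141 and 0.0451 and no overlap. Hars2 read 7.69, 7.67 and 7.66 with glutamine, an SD of 0.015, and 7.39, 7.09 and 7.09 without. Leaving out glutamine-free replicate 2 took the count of mitochondrial falls from 7 to 3. Without that array the adjusted p was 0.0553 for Cars2, 0.0546 for Sars2, 0.061 for Hars2 and 0.134 for Mars2. The call of Hars2 also ended without control replicate 2 (0.0526) or glutamine-free replicate 3 (0.0544), and that of Mars2 without any array but glutamine-free replicate 1 (0.063 to 0.134).

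The other 9 mitochondrial genes did not pass. Rars2, for arginine, was the member with the clearest difference upward: 9.83, 9.78 and 9.81 with glutamine and 10.07, 10.01 and 9.93 without. Its groups did not overlap, but the change of 0.20 (95% interval 0.035 to 0.36) had an adjusted p of 0.0848. That change was 0.17 after quantile normalization and 0.044 after centring (limma adjusted p 0.127 and 0.708). Ears2 supplies glutamate to mitochondrial tRNAs, including, in mammals, the glutamine tRNA. It read 5.87, 5.63 and 5.68 with glutamine and 5.63, 5.70 and 5.51 without, a change of -0.11 with overlap (adjusted p = 0.422). Fars2 (phenylalanine, -0.14), Lars2 (leucine, -0.13), Aars2 (alanine, -0.12), Pars2 (proline, -0.090) and Nars2 (asparagine, -0.056) had changes below 0, and Wars2 (tryptophan, 0.10) and Vars2 (valine, 0.042) above 0. Among these 7, Lars2 alone had groups that did not overlap, and the signs of Nars2, Wars2 and Vars2 varied over the alternatives. After centring, which moved all changes down together, Aars2, Fars2 and Lars2 were called lower.

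For 15 amino acids, both compartments could be set side by side, with Farsa standing for cytosolic phenylalanine and Eprs entering both the glutamate and the proline pair. Both genes fell for 3 amino acids (cysteine, histidine and methionine), only the cytosolic gene passed for 3 (phenylalanine, asparagine and arginine), only the mitochondrial one for 4 (isoleucine, serine, threonine and tyrosine), and neither for 5. The difference between the compartments was then tested itself, as the per-array cytosolic minus mitochondrial level. Its groups did not overlap for 8 of the 15 amino acids. For single genes this held for 43.8% of all genes and 56.2% of the brighter ones. No such share was taken for differences between other gene pairs. The difference moved toward a lower cytosolic gene for arginine (-0.81), cysteine (-0.65), phenylalanine (-0.57), asparagine (-0.53), tryptophan (-0.35) and valine (-0.34). It moved the other way for isoleucine (0.68) and proline (0.33). Neither gene was called for tryptophan, valine or proline, and for proline Eprs changed by 0.24 and Pars2 by -0.090. Each of these 8 had an exact two-sided permutation p = 0.1, the smallest possible with 3 against 3 arrays, and 0.188 after adjustment over the 15 pairs, so none can reach the threshold. The count was 7 after quantile normalization. Without single arrays it was 8 to 11, but leaving out an array can only keep or raise this count. That range is therefore no check on it.

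Arginine was the amino acid with the widest gap, Rars having fallen by 0.61 beside the uncalled change of 0.20 in Rars2. Isoleucine was the widest gap in the other direction, with Iars at -0.065 beside the fall of 0.74 in Iars2. Serine and histidine were closest: Sars and Sars2 changed by -0.48 and -0.49, and Hars and Hars2 by -0.51 and -0.48, with exact two-sided permutation p of 1 and 0.8 for the difference.

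**Figure D3:**
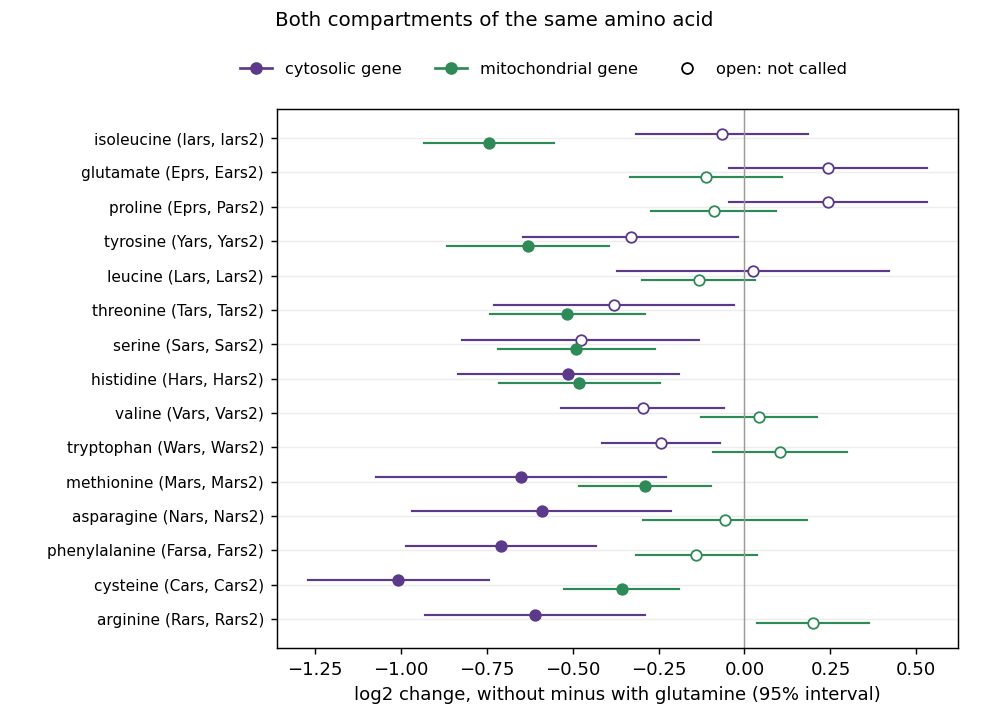
For each of 15 amino acids, the log2 change without minus with glutamine is shown for the cytosolic and the mitochondrial gene, with its 95% interval from limma; filled points passed adjusted p under 0.05. The pairs are ordered by the difference between compartments, from isoleucine (0.68) at the top to arginine (-0.81) at the bottom.

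Promoters are shown because ATF4 binds a known element, the C/EBP-ATF response element, and the printed stretches hold its letters in synthetase genes. RefSeq promoter windows (GRCm38.p6, 250 bases before to 50 after a transcript start) were matched by symbol for 28 of the 37 genes; Cars, Hars, Hars2, Lars, Nars, Pars2, Rars, Vars and Wars had none in the table. The 8 letters TTGCATCA were searched on both strands. They stood in 3 of 11 cytosolic genes, Iars, Tars and Yars, in 0 of 14 mitochondrial genes, and in 1.03% of 27025 genes with a window. Under the looser core TGATGNAA, which includes all TTGCATCA sites on the opposite strand, Gars joined them, and 4.51% of all genes had a match. Shown next are 30 bases of the gene's own strand, 5′ to 3′, from Iars (chr13:49682126-49682155, plus strand), Tars (chr15:11399655-11399684, minus strand), Yars (chr4:129189895-129189924, plus strand) and Gars (chr6:55037960-55037989, plus strand), with the matching 8 letters in capitals.
Iars: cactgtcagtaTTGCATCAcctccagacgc
Tars: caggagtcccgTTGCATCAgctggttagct
Yars: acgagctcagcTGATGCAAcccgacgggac
Gars: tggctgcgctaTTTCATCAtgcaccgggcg

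Counting the first transcribed base as 1, the match began at position 8 in Iars, -15 in Tars, 4 in Yars and -30 in Gars. Of these genes only Gars passed the test, with a fall of 0.48; Iars, Tars and Yars had changes of -0.065, -0.38 and -0.33 that did not. A match is a description of letters in this window and not evidence of binding.

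Mitochondria of mammals charge their glutamine tRNA indirectly: Ears2 loads it with glutamate, and an amidotransferase of 3 subunits, encoded by Qrsl1, Gatb and Gatc, converts it with glutamine as the amide donor. Qrsl1 read 7.23, 7.21 and 7.44 with glutamine and 6.89, 6.84 and 6.86 without, and fell by 0.44 (limma adjusted p = 0.0123). Gatb fell by 0.41 from 7.44 ± 0.12 to 7.03 ± 0.075 (SD, n = 3 each, limma adjusted p = 0.0176), a call that ended without control replicate 1 or glutamine-free replicate 1 or 3 (adjusted p 0.0505 to 0.0594). Gatc read 12.20, 12.02 and 12.22 with glutamine and 12.01, 11.93 and 12.32 without, with overlap and a change of -0.060 (adjusted p = 0.743). Mtfmt, which formylates the initiator methionine tRNA of mitochondria, fell by 0.63 from 9.66 ± 0.080 to 9.03 ± 0.12 (SD, n = 3 each, limma adjusted p = 0.00433). The list of these routes thus had 3 falls among 4 genes, beside 24.9% of the brighter genes. It had 2 falls without control replicate 1 or glutamine-free replicate 1 or 3, and 1 at adjusted p under 0.01.

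Factors that use charged tRNA were examined in both compartments, and the 2 lists were not tested against each other. Of 6 cytosolic elongation genes, 3 rose and 0 fell by limma, and the median change was 0.29. At an unadjusted limma p under 0.05, 4 were higher and 1 was lower, and the share of all genes at that threshold was not computed. Eef1b2 rose by 0.52, Eef1g by 0.47 and Eef2 by 0.41; Eef1b2 and Eef1g reload the factor that brings charged tRNA to the ribosome, and Eef2 moves the ribosome on. These rises depended on scaling: after quantile normalization none was called (adjusted p of 0.471, 0.185 and 0.0986) and 1 other gene of the list was lower, and after centring the rise of Eef2 was lost (0.0952). Of 9 mitochondrial translation factors, 5 fell and 1 rose, with a median change of -0.43. For both lists, the shares among the brighter genes were 24.9% lower and 13.7% higher. Gfm1, a mitochondrial elongation factor, fell by 0.79 from 10.97 ± 0.065 to 10.18 ± 0.16 (SD, n = 3 each, limma adjusted p = 0.0027), and Mtrf1, of the release factor family, fell by 0.70 (adjusted p = 0.00231). Tufm, which carries charged tRNA to the mitochondrial ribosome, fell by 0.71 (adjusted p = 0.0411), but not when control replicate 1 or 2 or glutamine-free replicate 2 or 3 was left out (0.103 to 0.117). Mrrf, the ribosome recycling factor, rose by 0.66 (adjusted p = 0.00785). Without glutamine-free replicate 2 the falls in this list were 3.

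Among genes that make and check tRNAs, 5 of 22 measured maturation genes fell and 1 rose, with a median change of -0.11, so that the share of falls was near the 24.9% of the brighter genes. The RNA kinase gene Clp1, part of the tRNA splicing machinery, fell by 0.89 (limma adjusted p = 0.00902) and Ddx1, a helicase of the tRNA ligase complex, by 0.57 (0.0104). Trnt1, which adds the CCA end that synthetases load, fell by 0.54 (0.0252) and the tRNA methyltransferase gene Trmt1 rose by 0.49 (0.0374). The call of Trnt1 ended without any array but glutamine-free replicate 1 (adjusted p 0.0503 to 0.0819). That of Trmt1 ended without control replicate 2 or 3 or glutamine-free replicate 1 or 2 (0.0826 to 0.114), after centring (0.123) or with the mean over its rows (0.117). Without single arrays the list held 2 to 6 falls. Of 4 measured proofreading genes, Dtd2, which removes wrongly attached residues from tRNA, fell by 0.59 (adjusted p = 0.00288), and Prorsd1 fell by 0.52 (0.0161), the latter not without glutamine-free replicate 2 or 3 (0.063 and 0.0565). Of 4 selenocysteine genes 0 were called by limma. At an unadjusted limma p under 0.05, 2 were lower and 1 was higher, and the share of all genes at that threshold was not computed. The brightest, Eefsec and Secisbp2, changed by -0.13 and 0.18.

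Of 19 measured genes of the GCN2-ATF4 pathway, 3 rose, 5 fell and 11 did not pass, with a median change of -0.16. These shares are near those of the brighter genes, of which 13.7% were higher and 24.9% lower. The falls were 8 after quantile normalization and 9 after centring. Sesn2, an inhibitor of growth signalling, rose by 1.89 from 10.34, 10.16 and 10.24 to 12.51, 11.99 and 11.90 (limma adjusted p = 0.000787). Atf5 rose by 1.46 (adjusted p = 0.00141) and Ddit3, which encodes the stress factor CHOP, by 0.93 (0.00127), and all 3 genes had separate groups. Vldlr, a lipoprotein receptor gene, fell by 2.44 (adjusted p = 0.00536), with its control arrays spread from 7.74 to 9.28 and its glutamine-free arrays from 5.85 to 6.07. Slc7a11, Chac1 and Slc7a5 fell too, by 0.90, 0.86 and 0.55 (limma adjusted p 0.00223, 0.00646 and 0.00608). Atf4 itself read 11.96, 11.85 and 11.75 with glutamine and 11.53, 11.41 and 11.26 without, and fell by 0.46 (adjusted p = 0.0178). That call ended without control replicate 1 or 2 or glutamine-free replicate 2 or 3 (adjusted p 0.0516 to 0.06), and the array measures Atf4 transcript, not the translation by which ATF4 is chiefly regulated.

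Asns, which makes asparagine with glutamine as nitrogen donor, read 14.37, 14.42 and 14.13 with glutamine and 14.06, 13.82 and 13.57 without. The groups were separate, with a change of -0.49 just outside the threshold (adjusted p = 0.0509), and it passed after quantile normalization or centring and without control replicate 3 or glutamine-free replicate 1 (adjusted p = 0.0443 and 0.0322). Trib3 changed by 0.32 (adjusted p = 0.0979, and 0.0372 without glutamine-free replicate 3) and Eif2ak4 by -0.25 (0.0948).

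**Figure D4:**
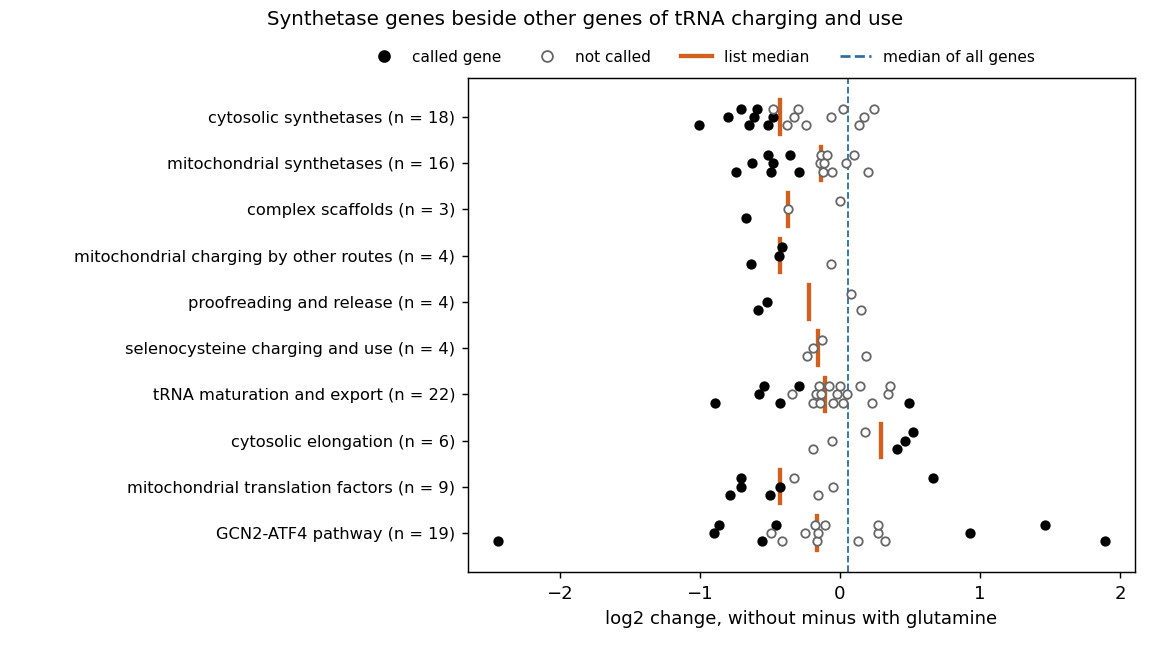
Each point is the log2 change of 1 gene without minus with glutamine, in rows by gene list; filled points passed adjusted p under 0.05 (limma), thick bars are list medians and the dashed line is the median of all genes (0.060). The synthetase sets lie at or left of the dashed line save for a few uncalled genes, the cytosolic elongation genes include 3 rises, which were lost after quantile normalization, and the GCN2-ATF4 genes spread from -2.44 to 1.89.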

How the data were processed

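The authors deposited log2 expression levels for 65956 array rows, and the submitters' processing notes name RMA and the Transcriptome Analysis Console 4.0 for them; options, annotation and genome build: not given in the sources used here. All 6 columns were used as deposited, and 0 columns belonged to other samples. Rows were named by the platform annotation given with them, with symbols brought up to date from RefSeq's gene table (GRCm38.p6): 31258 rows named 1 gene, 1492 several and 33206 were unnamed here. The row with the highest mean stood for each of 30702 genes.

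The difference between 3 glutamine-free and 3 control arrays was tested with limma 3.58.1 in R 4.3.3 (lmFit and eBayes, two-sided, no covariate), with Benjamini-Hochberg adjustment over all genes. Intervals are 95% intervals of the moderated fit, and the fit was tested on simulated data. Differences between a pair of genes were tested with exact permutation over arrays in scipy 1.17.1. The members and gene lists were chosen with earlier results of these data known. All members are described. Other genes come from fixed lists, at most 4 per list by the largest called change or the 2 brightest, plus 8 always given. For the GCN2-ATF4 list all called genes are named. Alternatives were 2 scalings, a filter on dim genes, the mean over rows, other variance models, array weights, a stricter threshold, a replicate block and leaving out each array. The number of arrays limits the precision. Figures were drawn with matplotlib 3.10.9.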

Additional observations from a re-analysis of the deposited data

How the results depend on the processing

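No member gene rose under any of the 15 alternatives, and no called member changed sign; 7 uncalled members (Aimp1, Iars, Lars, Nars2, Qars, Vars2 and Wars2) did. Of the 16 falls, 5 were called under every alternative. Quantile normalization moved the median change of all genes from 0.060 to -0.048 and centring moved it to -0.095, so calls shifted downward: 41.7% of called genes were higher as deposited, 21.7% (1453 genes) after quantile normalization and 16.6% (1215 higher, 6126 lower) after centring. Those scalings gave medians of -0.28 and -0.29 for mitochondrial synthetases, -0.63 and -0.52 for scaffolds, and 2 scaffold falls each; they called 19 and 24 members, with 10 and 12 cytosolic and 7 and 10 mitochondrial falls. The unmoderated statistic called 3832 genes (1414 higher, 2418 lower) and 8 members, with 4 cytosolic, 4 mitochondrial and 0 scaffold falls. At adjusted p under 0.01, 2943 genes (800 higher, 2143 lower) and 6 members were called, with 3 cytosolic and 2 mitochondrial falls. The cause of the unmoderated statistic's fewer calls was not tested.

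Leaving out each array gave 4060 to 6501 called genes (1394 to 2489 higher, 2666 to 4012 lower), 8 to 18 members, 4 to 10 cytosolic and 3 to 7 mitochondrial falls, and scaffold medians of -0.45 to -0.25. The replicate block called 6292 genes and 16 members, 9 of them cytosolic and 6 mitochondrial; same-numbered arrays correlated at 0.066, -0.234 and 0.276 in their deviations from group means, so the numbers are not shown to pair the cultures.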
